A study of Mus musculus with 14 samples.

Results

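The mitochondrial ribosomal proteins are the nuclear-encoded proteins of the ribosome inside mitochondria. Genes were taken by name from the array's annotation, every symbol that starts with Mrpl or Mrps followed by a number, which gave 76 genes of the 13579 genes tested. Of these, 47 Mrpl genes stand for the large subunit and 29 Mrps genes for the small subunit. All 76 passed the filter on dim probe sets, and 75 of them lay above its threshold on all 14 arrays, the exception being Mrpl19 with 13. Mrpl30 and Mrpl53 are carried only on probe sets shared with another gene and were not analysed here.

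The arrays measured RNA of skeletal muscle precursor cells of C57BL/6 mice, with 5 arrays at 2 months (young), 4 at 12 months (middle-aged) and 5 at 24 months (aged). Cells were freed from myofibres and sorted as CD45-, Ter119-, Sca-1-, CD29+ and Cxcr4+, a gate for satellite cells, the stem cells of muscle. The labels name no treatment and no altered allele, and do not state how many animals stand behind an array, so every p-value measures only the spread between these arrays. The study asked which transcripts change with age in these cells.

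The mitoribosome translates the few proteins encoded by mitochondrial DNA, all of them core subunits of the oxidative phosphorylation complexes. Its small subunit reads the messenger RNA and its large subunit joins amino acids, as in bacteria, from whose ribosomes it descends. Many of its proteins have bacterial counterparts, others exist only in mitochondria, and all are made in the cytosol and imported. Quiescent satellite cells hold few mitochondria, and mitochondrial content rises when they activate. A symbol is not always a place: structures put Mrps18a and Mrps30 in the large subunit, and Mrps36 is now regarded as a subunit of the oxoglutarate dehydrogenase complex.

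RefSeq's promoter table (build GRCm38.p6) held 67 of the 76 genes, each with the 250 bases before its start and the 50 after it. The promoters of the 4 genes with the smallest F test p over the 3 ages are printed because the age comparisons below turn on these genes, in lower case from 5′ to 3′ on the gene's strand. Capitals mark matches, on either strand, to 3 motifs of factors known to act on nuclear genes for mitochondrial proteins: NRF1 (GCGCANGCG), the ETS family, which includes GABPA (CCGGAAG), and YY1 (AAGATGGCG). None of the 3 motifs is contained in another. Mrpl57 lies at chr14:57825989-57826288 on the plus strand, Mrps24 at chr11:5707652-5707951 on the minus strand, Mrps18c at chr5:100798509-100798808 on the plus strand and Mrps17 at chr5:129715247-129715546 on the plus strand.
Mrpl57: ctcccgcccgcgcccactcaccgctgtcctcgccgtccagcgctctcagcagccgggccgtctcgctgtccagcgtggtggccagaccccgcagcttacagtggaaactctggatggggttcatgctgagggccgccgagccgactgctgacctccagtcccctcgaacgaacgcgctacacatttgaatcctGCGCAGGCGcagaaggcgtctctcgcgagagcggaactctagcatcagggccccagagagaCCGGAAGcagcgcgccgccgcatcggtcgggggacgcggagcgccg
Mrps24: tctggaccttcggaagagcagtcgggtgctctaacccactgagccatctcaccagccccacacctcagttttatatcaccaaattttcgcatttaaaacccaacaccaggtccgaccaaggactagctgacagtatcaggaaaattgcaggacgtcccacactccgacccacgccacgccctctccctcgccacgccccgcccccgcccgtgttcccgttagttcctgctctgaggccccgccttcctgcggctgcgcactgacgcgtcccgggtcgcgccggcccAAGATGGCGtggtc
Mrps18c: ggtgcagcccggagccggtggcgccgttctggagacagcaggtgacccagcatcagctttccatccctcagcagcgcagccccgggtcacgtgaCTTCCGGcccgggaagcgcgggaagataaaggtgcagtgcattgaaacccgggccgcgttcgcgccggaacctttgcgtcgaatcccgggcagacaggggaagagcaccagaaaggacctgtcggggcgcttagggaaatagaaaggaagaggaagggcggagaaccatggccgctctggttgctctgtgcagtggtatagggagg
Mrps17: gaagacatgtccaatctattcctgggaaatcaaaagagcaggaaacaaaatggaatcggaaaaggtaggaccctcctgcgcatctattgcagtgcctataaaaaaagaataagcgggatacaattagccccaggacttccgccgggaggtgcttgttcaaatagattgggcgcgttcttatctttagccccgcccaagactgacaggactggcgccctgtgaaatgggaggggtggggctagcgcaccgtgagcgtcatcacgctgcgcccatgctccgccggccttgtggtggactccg
The Mrpl57 promoter held an NRF1 match at base -57 from the start and an ETS match at base 4. Mrps24 held a YY1 match at base 36, Mrps18c an ETS match on the opposite strand at base -156, and Mrps17 no match to these letters. Over the 67 promoters, 15 (22.4%) held the NRF1 motif, 25 (37.3%) the ETS motif and 8 (11.9%) the YY1 motif. In all 27025 genes of the table the shares were 7.03%, 9.93% and 1.64%, and in those that were also measured here they were 13.5%, 17.7% and 3.11%. In all, 40 of the 67 (59.7%) held at least 1 of the motifs, against 16.5% of all genes of the table and 30% of those also measured here. The median log2 change in middle-aged against young arrays was -0.36 for the 25 genes with the ETS motif and -0.29 for the 42 without it. For the NRF1 motif it was -0.25 with it and -0.34 without it over 52 genes, and for the YY1 motif -0.37 with it and -0.31 without it over 59 genes.

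The mitoribosomal genes were lower at 12 months than at 2 months and at 24 months, in both subunits, and at 24 months they lay near the level of 2 months. The mean of the middle-aged arrays was below both other means for 69 of the 76 genes (90.8%), against 36.7% of all genes. That count held 42 of the 47 Mrpl genes and 27 of the 29 Mrps genes. The exceptions were Mrpl10, Mrpl14, Mrpl28, Mrpl48, Mrpl51, Mrps6 and Mrps16. By the brightest probe set, which stands for each gene here, Mrps14 alone differed by 2-fold or more between 2 ages, and few genes passed the test.

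For each array, the median over the genes of a subunit was taken after subtracting each gene's own mean over the 14 arrays. For the large subunit this log2 deviation was 0.09, -0.02, 0.09, 0.02 and 0.07 on the young arrays, -0.16, -0.32, -0.35 and -0.17 on the middle-aged arrays, and 0.30, -0.12, 0.17, 0.41 and 0.08 on the aged arrays. For the small subunit it was 0.13, 0.02, 0.06, -0.02 and 0.11 on the young arrays, -0.17, -0.30, -0.37 and -0.21 on the middle-aged arrays, and 0.12, -0.23, 0.24, 0.51 and 0.13 on the aged arrays. All 4 middle-aged arrays lay below all 5 young arrays in both subunits. The aged arrays were spread more widely: aged array 2 lay within the middle-aged range in the small subunit and just above it in the large one, and aged array 4 lay above every other array in both subunits. On the 4 middle-aged arrays, 32, 44, 44 and 37 of the 76 genes lay below the lowest young array. On the 5 aged arrays 10, 30, 9, 5 and 13 did. This count was not made over all genes, so it has no share to be set against and describes the arrays only.

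**Figure D1:**
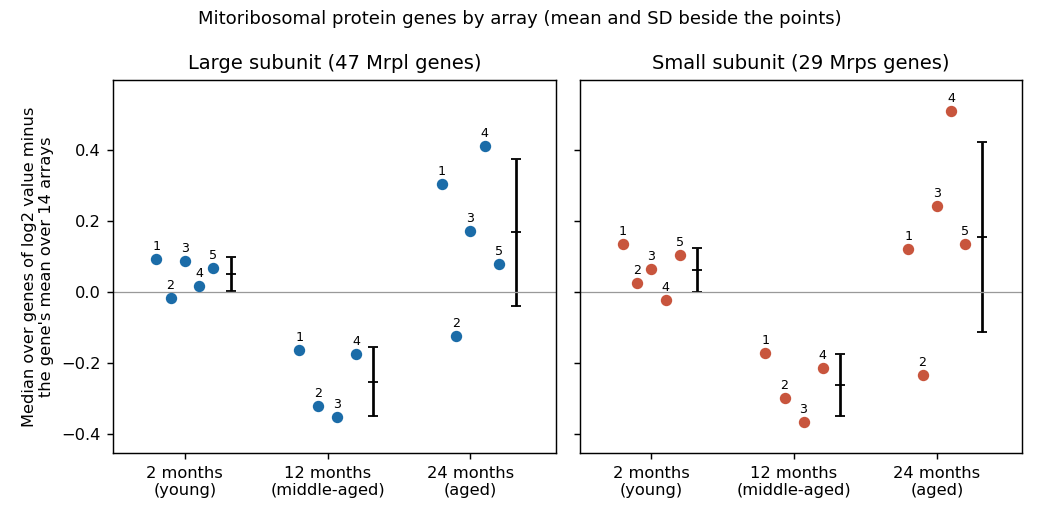
The panels show, for each array (points, numbered by replicate), the median over 47 Mrpl genes or 29 Mrps genes of the log2 value minus the gene's own mean over the 14 arrays, by age in months. The bar beside each age is the mean and SD, the 4 middle-aged arrays lie between -0.37 and -0.16, and aged array 2 lies among them in the small subunit (-0.23) and just above them in the large one (-0.12).

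Middle-aged against young was the only comparison of 2 ages in which members passed the test. The medians lay further from 0 in aged against middle-aged arrays, given below. The median log2 change over the Mrpl genes was -0.28, with a range of -0.86 to 0.18, and 44 of 47 lay below 0. Over the Mrps genes it was -0.37, with a range of -1.10 to 0.23, and 27 of 29 lay below 0. The median over all genes was -0.04. Genes of similar signal were the 3488 with a mean log2 intensity in the range of the middle 50% of mitoribosomal genes (6.46 to 8.39). Their median was -0.14. Below 0 lay 7680 of all 13579 genes and 2299 of the 3488 genes of similar signal. By limma's moderated test with Benjamini-Hochberg adjustment over all genes, 2 of the 76 genes were lower at an adjusted p under 0.05, and 1.22% of all genes were. No mitoribosomal gene was higher by this test (0 of 76), against 1.75% of all genes. At an unadjusted p under 0.05, 22 of the 76 (28.9%) were lower, against 9.93% of all genes, and 0 were higher, against 6.40% of all genes. The 4 middle-aged arrays lay wholly below the 5 young arrays for 12 of the 76 genes, against 5.07% of all genes.

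The 2 genes that passed were 1 of each subunit. Mrpl57, a protein of the large subunit with no bacterial counterpart, had log2 intensities of 9.25, 9.36, 9.32, 8.78 and 9.28 at 2 months, 8.56, 8.42, 8.38 and 8.27 at 12 months, and 9.12, 8.58, 8.93, 9.24 and 9.02 at 24 months. Every middle-aged array lay below every young and every aged array. Mrpl57 was 1.73-fold lower in middle-aged than in young arrays (log2 change -0.79 ± 0.16 SE, limma adjusted p = 0.0159), and it also passed the F test over the 3 ages (adjusted p = 0.0239). This call was lost without middle-aged array 3 (adjusted p = 0.0555) or middle-aged array 4 (adjusted p = 0.0627). It was also lost with replicate number as a term in the model. Mrpl57 was not among the 7 members called within the first of the 2 array sets described below.

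Mrps17, the counterpart of a bacterial small subunit protein that binds ribosomal RNA, had log2 intensities of 8.23, 8.57, 8.37, 8.03 and 8.52 at 2 months, 7.87, 7.40, 7.45 and 7.44 at 12 months, and 8.09, 7.68, 8.14, 8.80 and 8.13 at 24 months. Its middle-aged arrays lay below all young arrays, but middle-aged array 1 lay above aged array 2. Mrps17 was 1.74-fold lower in middle-aged than in young arrays (log2 change -0.80 ± 0.20 SE, limma adjusted p = 0.0409). Its adjusted p lay between 0.0151 and 0.124 when 1 array was left out. The call was lost without any 1 of young arrays 1, 2, 3 and 5 or of middle-aged arrays 2, 3 and 4. The highest of these p came without middle-aged array 3. The Mrps17 call was also lost with median centring, with trend and robust variance, and with replicate number as a term.

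Other genes came close to the threshold or had larger changes with a wider spread. Mrpl21, the counterpart of a bacterial large subunit protein, had 7.12, 7.23, 7.32, 7.21 and 7.37 at 2 months, 6.86, 6.72, 6.58 and 6.22 at 12 months, and 7.40, 7.17, 7.31, 7.72 and 6.75 at 24 months, on the log2 intensity scale. All middle-aged arrays lay below all young arrays, and the log2 change was -0.66 ± 0.18 (SE, limma adjusted p = 0.0649). Mrps14, a small subunit protein with a bacterial counterpart, showed the most negative log2 change of all members, -1.10 ± 0.34 (SE, limma adjusted p = 0.10). Its arrays read 8.78, 9.43, 8.76, 8.62 and 9.17 at 2 months, 8.85, 7.55, 7.68 and 7.33 at 12 months, and 8.36, 8.16, 8.97, 9.38 and 9.64 at 24 months. Middle-aged array 1 lay within the young range and the other 3 lay below it, and without that array Mrps14 passed the test (adjusted p = 0.0210). A dimmer kept probe set of Mrps14 gave a change of -0.22, so the size rests on 1 probe set.

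Mrpl22, whose protein lines the exit tunnel of the large subunit, had a change of -0.69 ± 0.21 (SE, limma adjusted p = 0.0948) on the log2 scale, with middle-aged arrays at 7.69, 7.86, 7.17 and 7.46 and young arrays at 8.24, 8.11, 8.39, 8.41 and 8.02. Mrpl41, a large subunit protein found only in mitochondria, had a change of -0.60 ± 0.18 (SE, limma adjusted p = 0.0947), with middle-aged arrays at 8.50, 8.99, 8.40 and 8.92 and young arrays at 9.22, 9.23, 9.28, 9.49 and 9.31. Neither pair of groups overlapped. The 12 genes without overlap were Mrpl21, Mrpl22, Mrpl32, Mrpl41, Mrpl44, Mrpl54, Mrpl57, Mrps11, Mrps17, Mrps22, Mrps27 and Mrps30, 7 by symbol from the large and 5 from the small subunit. Mrpl50 had the most negative change of the large subunit, -0.86 ± 0.37 (SE, limma adjusted p = 0.253). Its middle-aged array 1 (6.44) lay within the young range (5.93 to 7.24), and middle-aged arrays 2, 3 and 4 (5.76, 5.37 and 5.13) lay below it. The dimmer probe set of Mrpl50 gave -0.61 here and 1.01 in aged against middle-aged arrays, where the brighter one gave 0.71. At the other end, Mrpl48 had a change of 0.18 ± 0.22 and Mrps16 of 0.23 ± 0.23 (SE), and neither passed the test (limma adjusted p = 0.774 and 0.693).

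**Figure D2:**
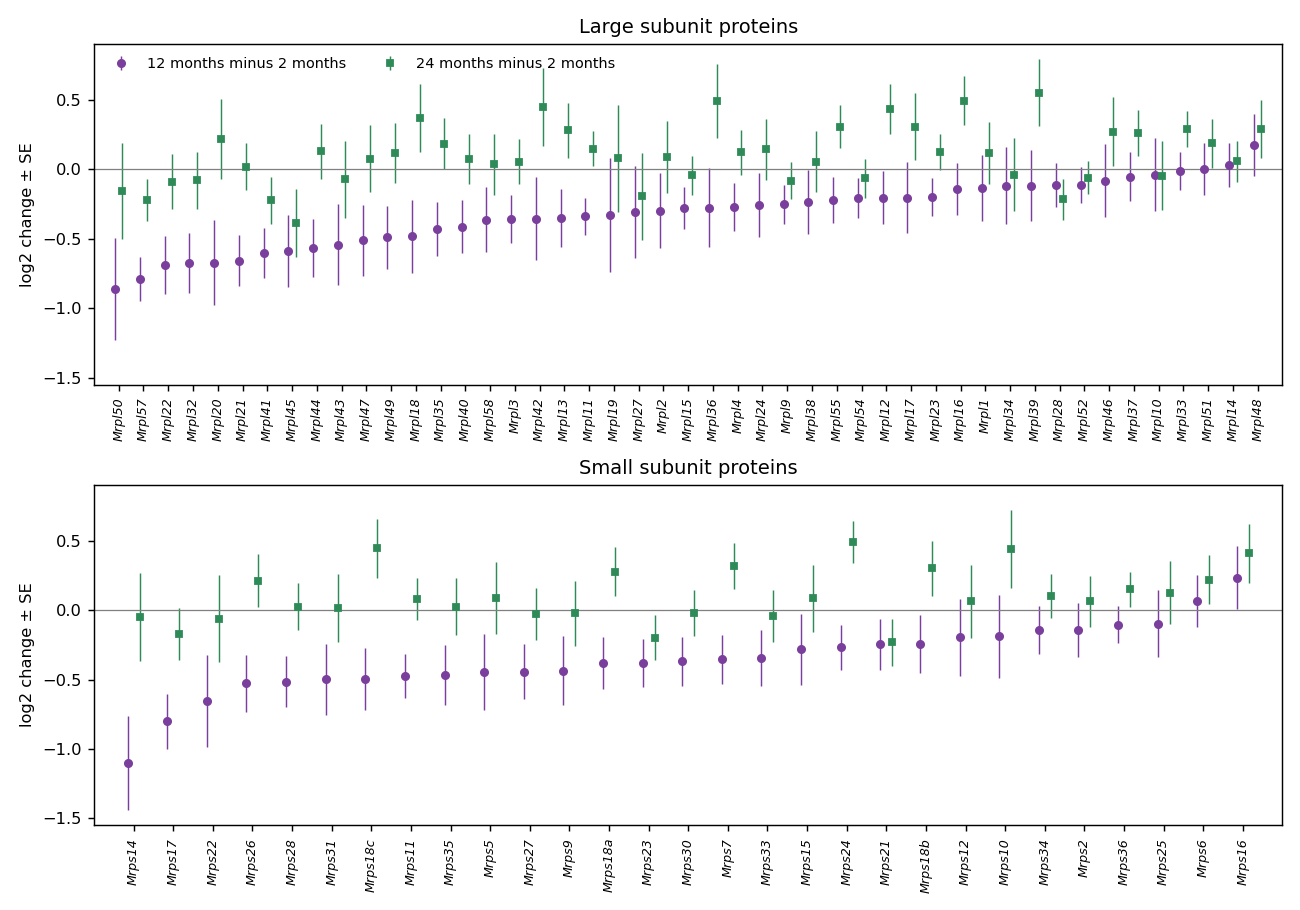
Each position is a gene, sorted by the change at 12 months, with the log2 change ± SE at 12 months minus 2 months (circles) and at 24 months minus 2 months (squares), for Mrpl genes above and Mrps genes below. Of the circles, 71 of 76 lie below 0, whereas 52 of the 76 squares lie above it, and 37 of 76 without aged array 4.

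Aged against middle-aged arrays ran the other way. The median log2 change was 0.41 for the Mrpl genes, with a range of -0.10 to 0.89 and 45 of 47 above 0, and 0.49 for the Mrps genes, with a range of 0.01 to 1.05 and 29 of 29 above 0. All genes had a median of 0.01 and the genes of similar signal 0.10. Above 0 lay 6979 of all 13579 genes and 2227 of the 3488 genes of similar signal. No gene of the 13579 tested passed limma's test in this comparison in either direction, so 0 of 76 members stood against 0% of all genes. At an unadjusted p under 0.05, 34 of the 76 (44.7%) were higher, 23 Mrpl and 11 Mrps genes, against 6.38% of all genes, and 0 were lower, against 3.23% of all genes. The aged arrays lay wholly above the middle-aged arrays for 7 of the 76 genes, against 1.41% of all genes: Mrpl39, Mrpl57, Mrps7, Mrps11, Mrps18c, Mrps24 and Mrps28. Both comparisons use the same 4 middle-aged arrays, so a low reading on those arrays enters both.

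Mrps24, the counterpart of a bacterial small subunit protein, had log2 intensities of 8.63, 8.69, 8.50, 8.45 and 8.46 at 2 months, 8.59, 8.32, 8.23 and 7.98 at 12 months, and 9.27, 8.60, 9.22, 9.01 and 9.07 at 24 months. The aged arrays were the highest but for aged array 2, which lay just above middle-aged array 1 and inside the young range. Mrps24 passed the F test over the 3 ages (limma adjusted p = 0.0272), 1 of 2 members to do so together with Mrpl57, against 4.16% of all genes. In aged against middle-aged arrays its log2 change was 0.76 ± 0.16 (SE, limma adjusted p = 0.242). Both of its kept probe sets carry sequence shared with other transcripts by their names, and they gave changes of 0.76 and 0.74.

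Mrps18c, 1 of 3 mouse relatives of a single bacterial protein, had log2 intensities of 8.32, 8.95, 8.28, 8.40 and 8.92 at 2 months, 8.37, 8.19, 7.82 and 7.93 at 12 months, and 8.64, 8.59, 9.45, 8.97 and 9.45 at 24 months. All aged arrays lay above all middle-aged arrays, by a log2 change of 0.94 ± 0.22 (SE, limma adjusted p = 0.250). Its paralogues Mrps18a and Mrps18b had log2 changes of 0.66 ± 0.19 and 0.55 ± 0.21 (SE) in the same comparison (limma adjusted p = 0.358 and 0.443). Mrps7, a counterpart of the bacterial protein that starts small subunit head assembly, read 9.14, 9.10, 9.22, 9.91 and 9.04 on the aged arrays, against 8.56, 8.60, 8.38 and 8.90 on the middle-aged arrays. The groups did not overlap (log2 change 0.67 ± 0.17 SE, limma adjusted p = 0.301), and aged array 4 stood above the rest.

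The ends of the range in this comparison were Mrps14 at 1.05 ± 0.34 and Mrpl20, which takes part in early large subunit assembly in bacteria, at 0.89 ± 0.30 (SE, limma adjusted p = 0.391 and 0.414). Mrpl28 and Mrps21 stood at -0.10 ± 0.16 and 0.01 ± 0.18 (SE, limma adjusted p = 0.861 and 0.989), and the sign of both turned with the processing. Mrpl11, at the site where translation factors bind the large subunit, had a log2 change of 0.49 ± 0.13 (SE, limma adjusted p = 0.348).

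**Figure D3:**
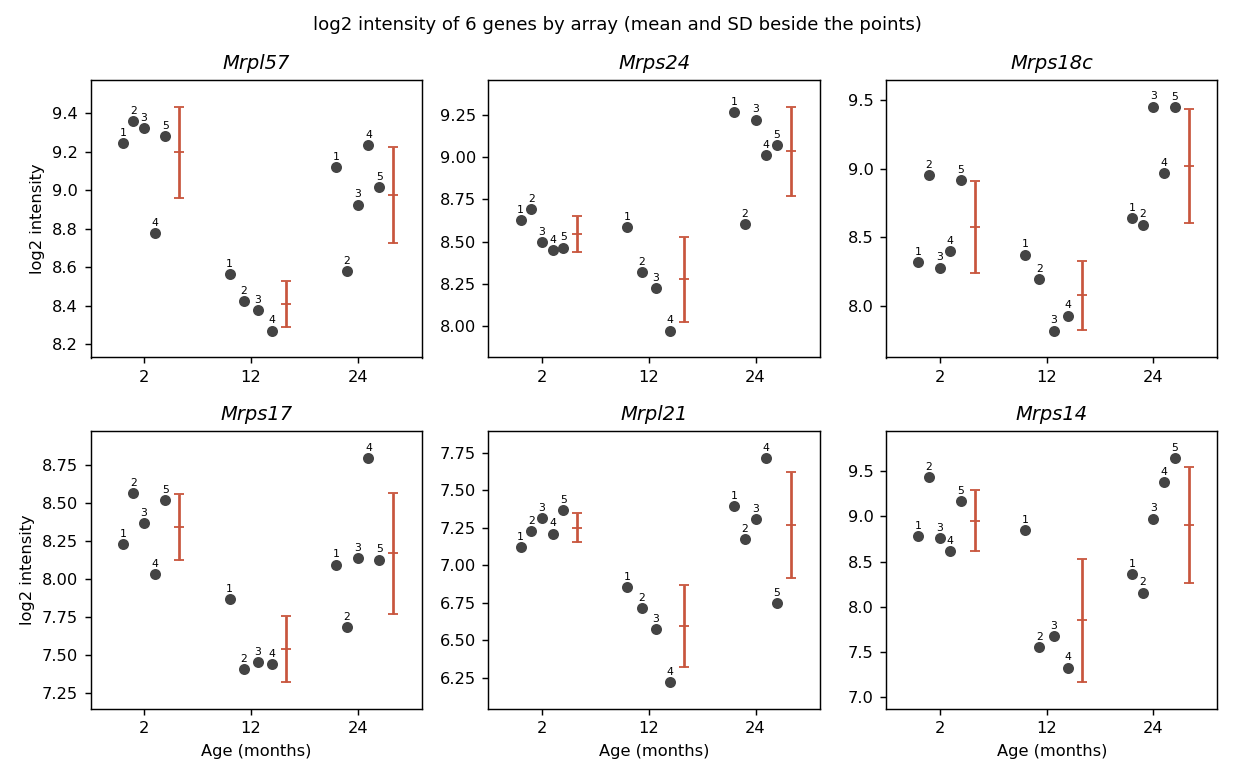
Points are log2 intensities of Mrpl57, Mrps24, Mrps18c, Mrps17, Mrpl21 and Mrps14 on each array, numbered by replicate, at 2, 12 and 24 months, with the mean and SD beside them. In Mrpl57 the 4 middle-aged arrays lie between 8.27 and 8.56, below all others, and in Mrps14 middle-aged array 1 (8.85) lies apart from the other 3.

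Aged against young arrays differed little. The median log2 change was 0.09 for the Mrpl genes, with a range of -0.38 to 0.55 and 32 of 47 above 0, and 0.08 for the Mrps genes, with a range of -0.23 to 0.49 and 20 of 29 above 0. Without aged array 4 these medians were 0.05 and -0.03, and 39 of the 76 genes lay below 0, so the direction of the Mrps median rests on that array. The median over all genes and over the genes of similar signal was -0.05, with 5686 of 13579 and 1569 of 3488 above 0. None of the 76 passed limma's test, against 3.05% of all genes that were higher and 1.25% that were lower. At an unadjusted p under 0.05, 5 of the 76 were higher (6.58%, against 8.63% of all genes) and 0 were lower, against 7.95% of all genes. The SE of a single member's change in this comparison was 0.12 to 0.39 on the log2 scale. A change could exceed its SE and still not pass, as in Mrps24 (0.49 ± 0.15 SE, limma adjusted p = 0.0875). Changes of that size could therefore be missed with 5 arrays a group.

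The 5 genes with the smallest p in this comparison were Mrps24, Mrpl16, Mrpl12, Mrpl39 and Mrpl33. Mrps24 had a log2 change of 0.49 ± 0.15 (SE, limma adjusted p = 0.0875). Without aged array 2 it passed the test (adjusted p = 0.0304). Mrpl16, the counterpart of a bacterial protein near the peptidyl transferase centre, read 8.56, 8.12, 8.21, 8.86 and 8.24 on the aged arrays, against 7.88, 8.06, 8.04, 7.67 and 7.87 on the young arrays. These groups did not overlap, yet the change of 0.49 ± 0.18 did not pass (SE, limma adjusted p = 0.149). Mrpl12, the stalk protein that recruits translation factors, read 8.76, 8.08, 8.52, 9.11 and 8.36 on the aged arrays, against 8.32, 8.08, 8.27, 7.88 and 8.11 on the young arrays. The groups overlapped through aged array 2 (log2 change 0.43 ± 0.18 SE, limma adjusted p = 0.220).

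Mrpl39, which resembles a part of threonyl-tRNA synthetase, had the largest change of the Mrpl genes in aged against young arrays, 0.55 ± 0.24 (SE, limma adjusted p = 0.250), and Mrpl45, a membrane-facing protein at the exit of the large subunit, the most negative at -0.38 ± 0.24 (SE, limma adjusted p = 0.477). A dimmer kept probe set of Mrpl39 gave a log2 change of 1.08 in aged against young arrays and of 1.19 in aged against middle-aged arrays, where the brighter one gave 0.67. Among the Mrps genes the most negative was Mrps21 at -0.23 ± 0.17 (SE, limma adjusted p = 0.557).

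Some members are known from other work. Mrps5, whose expression has been linked to lifespan differences among mouse strains, read 5.71, 5.43, 6.09, 5.81 and 5.31 at 2 months, 5.32, 5.41, 5.08 and 5.10 at 12 months, and 5.24, 5.05, 6.00, 6.68 and 5.83 at 24 months. Its young and middle-aged arrays overlapped (log2 change of middle-aged against young -0.44 ± 0.27 SE, limma adjusted p = 0.470), and its aged arrays spanned more than a log2 unit. Mrps12, of the decoding site, had a log2 change of -0.19 ± 0.28 in middle-aged against young arrays, and Mrpl3, which reaches towards the peptidyl transferase centre, of -0.36 ± 0.17 (SE, limma adjusted p = 0.807 and 0.328). Mrpl52, a mitochondria-specific protein, averaged 11.18 ± 0.11 at 2 months, 11.07 ± 0.14 at 12 months and 11.12 ± 0.15 at 24 months (SD, n = 5, 4 and 5) on the log2 scale, and no comparison of it passed the test. Mrps36, named for the small subunit but since reassigned, averaged 6.32 ± 0.05, 6.21 ± 0.17 and 6.47 ± 0.19 in the same order of ages.

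The lower values at 12 months were found in proteins with and without bacterial counterparts. The 44 genes with a bacterial counterpart had a median log2 change of -0.28 in middle-aged against young arrays and 0.45 in aged against middle-aged arrays. The 31 without one had -0.38 and 0.42. With Mrps18a and Mrps30 counted by structure and Mrps36 left out, the large subunit (49 genes) had -0.30 and 0.41 and the small subunit (26 genes) -0.37 and 0.50. The difference between subunits was not tested. The genes lie on 17 chromosomes, with 11 of them on chromosome 11.

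Probe sets of a gene did not always move together. Of 34 genes with more than 1 kept probe set, 22 had all of them on 1 side in middle-aged against young arrays. The other 12 had them on both sides. In aged against middle-aged arrays 17 had them on 1 side and 17 on both, and in aged against young arrays 15 and 19. Over all 136 kept probe sets, 113 were lower in middle-aged than in young arrays and 117 were higher in aged than in middle-aged arrays. Opposed probe sets with an unadjusted limma p under 0.05 in at least 1 were found for Mrpl17, Mrpl35 and Mrps26 in middle-aged against young arrays. In aged against middle-aged arrays the same held for Mrpl9, Mrpl13, Mrpl21, Mrpl35, Mrpl44, Mrps14 and Mrps26, and in aged against young arrays for Mrpl3. In Mrpl35 the brightest probe set gave -0.43 and another 0.41 in middle-aged against young arrays. In Mrpl17 the brightest gave -0.20 and both others 0.32 and 0.34. The direction of Mrpl17 and Mrpl35 in middle-aged against young arrays is therefore uncertain. So is that of Mrpl9 in aged against middle-aged arrays (brightest 0.17, another -0.44). The same holds for Mrpl3 in aged against young arrays (brightest 0.06, the others 0.44, -0.34 and 0.53). For Mrpl13, Mrpl21, Mrpl44, Mrps14 and Mrps26, the opposed probe set in aged against middle-aged arrays gave between -0.09 (Mrpl13) and -7.3e-05 (Mrpl44). The brightest gave 0.63 (Mrpl13) to 1.05 (Mrps14) there.

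The arrays fell into 2 sets along the first principal component of age-centred values, computed without the mitoribosomal genes (31.5% of variance). The first set held young arrays 1, 3 and 4, middle-aged arrays 2, 3 and 4 and aged arrays 1 and 2, and the second the remaining 6. Within the first set the median change of middle-aged against young arrays was -0.39 for the Mrpl genes and -0.41 for the Mrps genes. Within the second, with a single middle-aged array, it was -0.18 for each. For aged against middle-aged arrays the medians were 0.37 (Mrpl) and 0.34 (Mrps) within the first set and 0.40 and 0.49 within the second. For aged against young arrays they were 0.00 and -0.15 within the first set and 0.19 and 0.27 within the second, so the Mrps median turned sign between sets.

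Signs of RNA quality and of signal range also differed between ages. Control probe sets for the 3' end of Gapdh and Actb exceeded those for the 5' end by 4.30 ± 0.54 at 2 months, 3.85 ± 0.25 at 12 months and 3.54 ± 0.51 at 24 months (SD, n = 5, 4 and 5, log2). The 90th percentile of log2 intensity was 8.33 ± 0.04, 8.24 ± 0.10 and 8.35 ± 0.10 in the same order. The mean 3' excess was lower at each later age, and the mean percentile was lowest at 12 months, as the mitoribosomal genes were. Fitted with the 3' excess as a covariate, the median change of middle-aged against young arrays was -0.35 for the Mrpl genes and -0.42 for the Mrps genes. After quantile normalization, which makes the percentiles of all arrays equal, it was -0.23 and -0.28, and for aged against middle-aged arrays 0.33 and 0.43.

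Other genes of mitochondrial gene expression were summarised from lists. The 4 measured mitoribosomal proteins under other names (Dap3, Ptcd3, Chchd1 and Gadd45gip1) had a median log2 change of -0.42 in middle-aged against young arrays, with 4 of 4 below 0, and of 0.62 in aged against middle-aged arrays, with 3 of 4 above 0. Chchd1 had log2 changes of -0.55 ± 0.24 and 0.78 ± 0.24 in these comparisons (SE, limma adjusted p = 0.272 and 0.387). Of 23 mitoribosome assembly factors, 21 lay below 0 in middle-aged against young arrays (median -0.19), and 22 lay above 0 in aged against middle-aged arrays (median 0.29). The median in middle-aged against young arrays was -0.23 for 17 translation factors, -0.14 for 15 mitochondrial tRNA synthetases, -0.25 for 16 genes of mitochondrial DNA replication and transcription, and -0.32 for 9 nuclear regulators of mitochondrial biogenesis. In aged against middle-aged arrays the medians of these 4 lists were 0.20, -0.03, 0.17 and 0.18 in the same order, with 9 of the 15 tRNA synthetases below 0. No gene of these 6 lists, 84 genes in all, passed limma's test in any comparison. At an unadjusted p under 0.05, 12 of the 84 were lower in middle-aged than in young arrays, against 9.93% of all genes, and 9 were higher in aged than in middle-aged arrays, against 6.38% of all genes. In aged against young arrays, 2 of the 84 were higher, against 8.63% of all genes, and 6 were lower, against 7.95% of all genes. Tufm, the mitochondrial elongation factor, had -0.57 ± 0.22 and Lrpprc, which stabilises mitochondrial messenger RNA, -0.92 ± 0.35 (SE, limma adjusted p = 0.206 and 0.190).

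In the same comparison of middle-aged against young arrays, 76 oxidative phosphorylation subunits had a median of -0.21 with 67 below 0, and 41 cytosolic ribosomal proteins a median of -0.06 with 34 below 0. In aged against middle-aged arrays these medians were 0.31 and 0.06. None of the oxidative phosphorylation subunits passed limma's test in either comparison, while at an unadjusted p under 0.05 18 of 76 were lower in the first, against 9.93% of all genes. In the second, 31 were higher, against 6.38% of all genes, and 1 was lower. In aged against young arrays, Cox6a2, the muscle form of a cytochrome oxidase subunit, was the 1 that was higher (log2 change 0.72 ± 0.17 SE, limma adjusted p = 0.0274, named after its value was seen). Of 19 import proteins, chaperones and proteases (median -0.29), Timm8b, a small chaperone of the intermembrane space, was lower in middle-aged than in young arrays (log2 change -0.73 ± 0.13 SE, limma adjusted p = 0.00849). Ppargc1a, a coactivator of mitochondrial biogenesis, had -0.74 ± 0.41, Gabpa, an ETS factor, -0.66 ± 0.32, and Nrf1 0.16 ± 0.32 (SE, limma adjusted p = 0.410, 0.324 and 0.868).

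**Figure D4:**
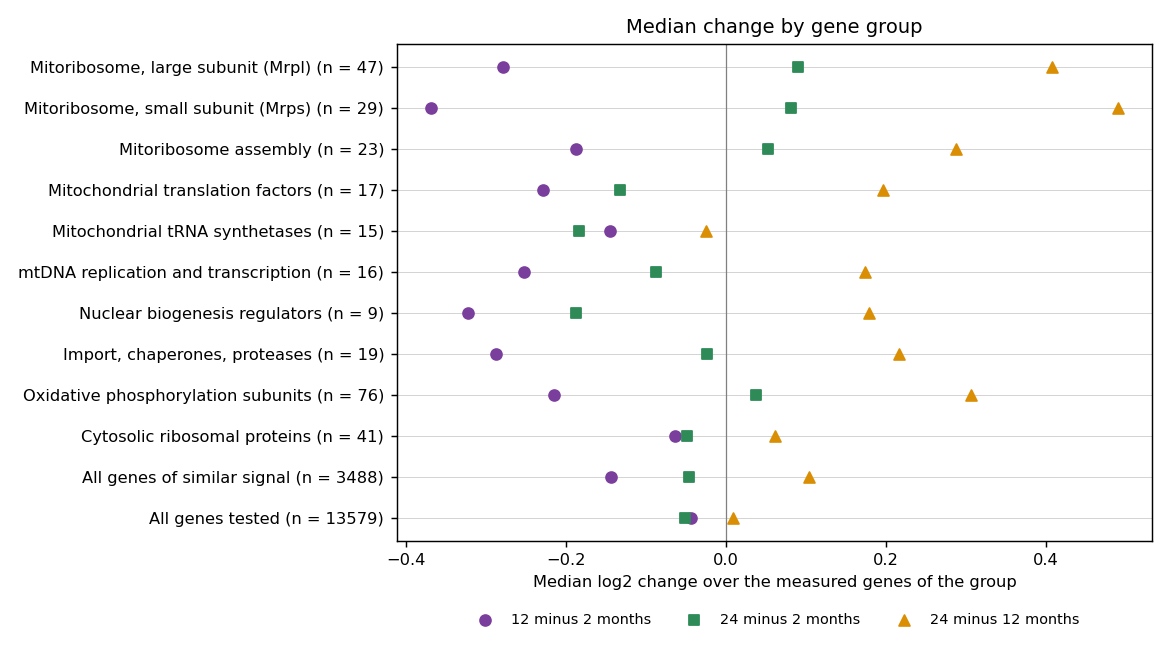
For each gene group (n, genes measured) the symbols give the median log2 change at 12 minus 2 months (circles), 24 minus 2 months (squares) and 24 minus 12 months (triangles). The large subunit medians are -0.28, 0.09 and 0.41 and the small subunit medians -0.37, 0.08 and 0.49, whereas cytosolic ribosomal proteins stay between -0.06 and 0.06.

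Markers of the sorted cells and of other cells were read beside these values. All 10 satellite cell markers, Pax7 among them, passed the filter, and the mean of their log2 intensities ranged from 9.86 to 10.15 on young, 9.24 to 9.77 on middle-aged and 9.01 to 9.71 on aged arrays. Msc was lower in middle-aged than in young arrays, and 2 of the 10 markers were lower in aged than in young arrays. All 10 had a log2 change below 0 in both comparisons (median -0.47 at 12 months and -0.58 at 24 months). At an unadjusted limma p under 0.05, 3 of the 10 were lower at 12 months, against 9.93% of all genes. At 24 months 6 were, against 7.95% of all genes. The mean of 8 tenocyte markers ranged from 6.64 to 7.89 on young, 9.22 to 10.90 on middle-aged and 9.48 to 10.53 on aged arrays, and 7 of the 8 were higher at each later age. The mean of 13 myofibre markers ranged from 6.30 to 7.50, 7.10 to 8.28 and 8.20 to 9.63 in the same order, with 12 of 13 higher in aged than in young arrays and 0 of 13 called in middle-aged against young arrays (limma, 4 at an unadjusted p under 0.05). Of 10 fibro-adipogenic markers, Dcn and Mfap5 were higher in aged than in young arrays and Dcn also in middle-aged than in young arrays. At an unadjusted limma p under 0.05, 4 of the 10 were higher and 2 lower in aged arrays. In middle-aged arrays 3 were higher and 2 lower, each against young arrays. The list's mean ranged from 9.11 to 9.43 at 2 months, 9.29 to 10.02 at 12 months and 9.05 to 10.44 at 24 months. Of 8 pericyte markers, Pdgfrb was higher at both later ages (list mean 7.48 to 7.75, 7.70 to 8.08 and 7.97 to 8.56 in the same order). Of the 8, 4 had a log2 change below 0 in each of these comparisons with young arrays. In aged against young arrays, Scn7a of 5 Schwann cell markers (5.80 to 6.80, 6.22 to 7.25 and 6.18 to 7.91) and Fabp4 of 2 adipocyte markers (3.81 to 5.10, 4.57 to 6.90 and 5.36 to 8.11) were also higher. Of 9 endothelial markers, Pecam1, Tie1 and Emcn did not pass the filter, and of the other 6 (5.12 to 5.66, 4.88 to 5.29 and 4.79 to 6.80) Tek was lower in aged than in young arrays. Of these 6, 5 had a log2 change above 0 in that comparison (median 0.24). Of 9 macrophage markers, Ptprc, Itgam and Mrc1 did not pass the filter, and none of the other 6 (4.68 to 4.83, 4.85 to 5.10 and 4.78 to 5.30) was called by limma, with 1 higher in each of aged and middle-aged against young arrays at an unadjusted p under 0.05. In RNA from many cells, fewer cells of a type and less RNA per cell cannot be told apart, and the part of these cells, of RNA quality and of signal range in the mitoribosomal values was not tested.

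**Figure D5:**
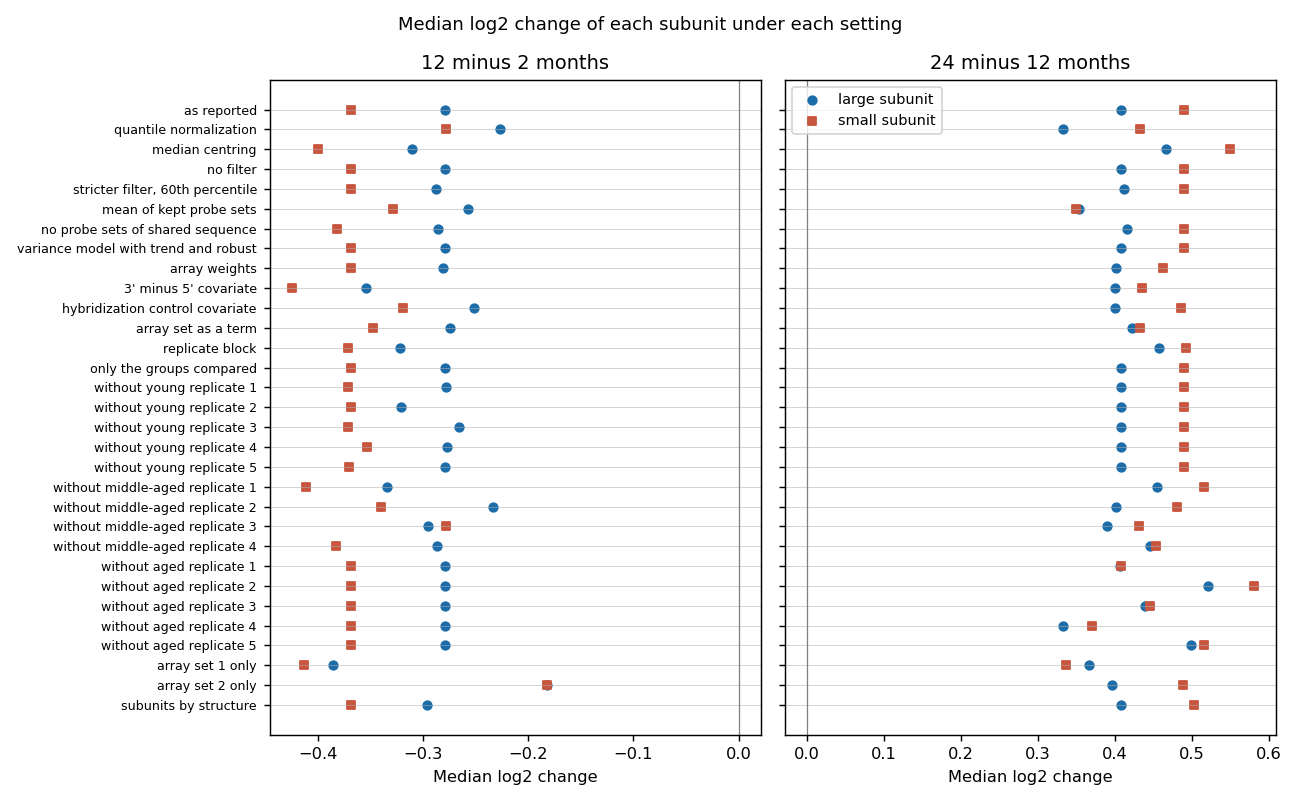
Each line is a processing setting, and points give the median log2 change of the large subunit (circles) and small subunit (squares) for 12 minus 2 months, left, and 24 minus 12 months, right. In each setting drawn the medians lie below 0 on the left, nearest to it at -0.18 for the 6 arrays of the second set, and above 0 on the right, nearest to it at 0.33.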

How the data were processed

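The data are 1 table of 14 Affymetrix mouse arrays. They hold deposited intensities, not yet logged, that the authors made with RMA, per the submitters' processing notes. RMA corrects background, normalizes across arrays and combines probes into 1 value per probe set. The sources used here give neither its version nor the annotation. The log2 of the deposited intensities was taken here with no further normalization (array medians 19.0 to 21.2 before log2). Arrays have no counting depth, and their number limits the precision.

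Of 45101 probe sets, 64 controls, 932 annotated to several genes and 9160 to none were left out, which left 34945. Dim probe sets were dropped: 23887 exceeded their array's 40th percentile, which stood at log2 3.79 to 3.96, on 4 or more of the 14 arrays. The brightest kept probe set stood for its gene, giving 13579 genes. The members had 156 probe sets with 1 symbol, of which 136 were kept, and all 76 matched RefSeq by Entrez identifier. No 2 arrays held identical values.

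All 14 arrays entered 1 model per gene with age as the factor, in limma 3.58.1 (R 4.3.3), with two-sided moderated tests, adjusted by Benjamini-Hochberg over all genes and called under 0.05. Errors of changes are limma's moderated SE and errors of means are SD. The model was tested on simulated data. Members are described by counts and medians beside those of all genes. Named are the called members (otherwise the 5 with the smallest p), the 5 with the smallest F test p, the extremes of each subunit, members with opposed probe sets, and fixed genes. Members and lists were chosen with earlier results of these data known. Alternatives changed normalization, filter, choice of probe set, variance model, array weights, covariates, array set, replicate block, groups fitted, and left out each array in turn. Added after seeing the data were each array set alone and the subunits by structure.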

Additional observations from a re-analysis of the deposited data

Results flagged for a closer look

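In 108 groups of 4 or 5 arrays (36 named genes and summaries at 3 ages), 6 held an array apart from the others by Dixon's test, and chance alone gives about 1 in 20. In Mrps17, middle-aged array 1 read 7.87, against 7.40 to 7.45 on the other 3. In Mrpl57, young array 4 read 8.78, against 9.25 to 9.36 on the others. In Mrps7, aged array 4 read 9.91, against 9.04 to 9.22. Young array 4 was also high in Mrpl28, at 8.82 against 8.32 to 8.45, and low in Mrps18b, at 8.02 against 8.35 to 8.48. In Mrps36, young array 2 read 6.22, against 6.33 to 6.35.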

How the results depend on the processing

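The median of middle-aged against young arrays stayed below 0, and that of aged against middle-aged arrays above 0, in both subunits under every alternative run. With 1 array left out, the first lay between -0.33 and -0.23 (large) and -0.41 and -0.28 (small), the second between 0.33 and 0.52 and between 0.37 and 0.58. The aged against young median lay between 0.05 and 0.16 (large) and between -0.03 and 0.17 (small). In the small subunit, the 8 arrays of the first set alone gave -0.15 for aged against young, and the 6 of the second gave 0.27, with -0.18 for middle-aged against young.

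Counts of called members moved more. In middle-aged against young arrays, 2 became 1 with median centring or with trend and robust variance, 9 with array weights, 7 with the 3' minus 5' covariate, 5 with array set as a term, 6 with only the groups compared, 7 in the first set, 0 in the second, and 0 to 3 with 1 array left out. In aged against young arrays, 0 became 2 with the hybridization control covariate (Mrpl16 and Mrps24) and 0 to 1 with 1 array left out (Mrps24, without aged array 2). In the F test, 2 became 9 with array weights, 5 with the 3' minus 5' covariate, 10 with the hybridization control covariate, 6 with array set as a term, 4 in the first set, 0 in the second, and 0 to 5 with 1 array left out. No alternative gave a call in aged against middle-aged arrays. The causes were not tested.

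With the replicate block, 0 members were called in middle-aged against young arrays and 0 in the F test. Residuals of same-numbered arrays correlated at -0.48 to 0.26 over 13 pairs (median -0.06), and 5 of the 13 were above 0.1. Those of differently numbered arrays correlated at -0.45 to 0.49 over 52 pairs (median 0.04), and 24 of the 52 were above 0.1. Same-numbered arrays were thus no more alike by the median, which cannot exclude a pairing.

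Of 1013 alternative values of 35 named results, 953 kept direction and side of the threshold, 17 lost and 20 gained a call, and 23 reversed, all in uncalled changes. In aged against young arrays, Mrps21 was 0.052 in the second set, and Mrpl3 was -0.29 in the first and -0.022 to 0.16 with 1 array left out. In middle-aged against young arrays, Mrpl48 was -0.10 in the second set, and Mrpl17 0.30 there and 0.15 as the mean of probe sets. In aged against middle-aged arrays, Mrpl28 was 0.15 as the mean of probe sets, 0.23 without shared probe sets, 0.018 with the 3' minus 5' covariate, 0.0024 with array set as a term and 0.12 in the first set. There Mrps21 was -0.050 after quantile normalization, -0.021 with the 3' minus 5' covariate, -0.050 with array set as a term, -0.021 with the replicate block, -0.14 in the first set, -0.11 in the second and -0.11 to 0.11 with 1 array left out. Mrpl9 was -0.066 as the mean of probe sets.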
